A study of Mus musculus with 9 samples.

Results

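The 38 Hox genes described here were chosen by gene symbol from a list of protein-coding Hox genes of the 4 clusters, a rule that used no measured value, and are 38 of the 54532 genes of a mouse count table. That rule was set with earlier results of these data known. On the GRCm38 build, the 10 listed genes of the Hoxa cluster lie on chromosome 6 from 52162417 to 52260880 (minus strand). The 10 Hoxb genes lie on chromosome 11 from 96194316 to 96368256, the 9 Hoxc genes on chromosome 15 from 102921103 to 103036852, and the 9 Hoxd genes on chromosome 2 from 74668310 to 74765142, all on the plus strand. Paralog groups are numbered along each cluster, and genes of the same group in different clusters descend from a common ancestor.

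RNA-seq with poly(A) selection gave 9 libraries of sorted cells, in 3 groups of 3 libraries called biological replicates by the labels. All 9 came from R1, a mouse embryonic stem cell line, here with the FoxA2-Venus genotype, a fluorescent reporter of the floor plate factor Foxa2. These cells grew clonally in Matrigel and N2B27 medium into neural tube organoids, which had the medium changed at Day 2 and were sorted 66 h later with a GFP filter set. The RA GFP- and RA GFP+ groups are the low and high fluorescence cells from medium with all-trans retinoic acid (RA), at 250 nM in the series text and 250 µM in the treatment protocol, a conflict that was not settled. The SAG GFP+ group is the high fluorescence cells from organoids given SAG, which activates Smoothened in the hedgehog pathway. Its dose is not given in the sources used here. The labels of this group name N2B27 medium with SAG and no RA. The presence of SAG and the absence of RA therefore cannot be told apart in either comparison with an RA group. No untreated group and no SAG GFP- group was analysed here, so sort and medium cannot be told apart between SAG GFP+ and RA GFP-. All groups rest on 1 cell line, and p-values measure the spread between the libraries labelled as replicates.

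Hox genes encode homeodomain transcription factors that give cells along the head-to-tail axis their position. In the neural tube, genes of low paralog number are active from the hindbrain backwards and genes of high number only further towards the tail, an order that follows the order of the genes on the chromosome. Retinoic acid acts on the low-numbered end through its nuclear receptors, Cdx factors act on the central genes, and TALE homeodomain proteins (Pbx, Meis, Pknox) bind DNA together with Hox proteins.

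RefSeq promoter windows (GRCm38.p6) were found for 22 of the 38 genes, in 24 windows. The 250 bases before the start of 4 of them are printed below because these genes separate the groups in different ways. Hoxb1 was higher in SAG GFP+, Hoxb4 and Hoxc4 were lower there, and Hoxb8 was called in neither comparison with SAG GFP+. Sequences run 5′ to 3′ on the plus strand, from chr11:96365508-96365757 (Hoxb1), chr11:96318017-96318266 (Hoxb4), chr11:96281655-96281904 (Hoxb8) and chr15:103034145-103034394 (Hoxc4). The Hoxc4 window lies inside the gene as counted, which spans 103018934 to 103036852, so it precedes an internal start. Capitals mark matches to TTTATNG, a Cdx-type motif, or to TGATNNAT, a motif of the kind bound by Pbx with Hox, on either strand.
Hoxb1: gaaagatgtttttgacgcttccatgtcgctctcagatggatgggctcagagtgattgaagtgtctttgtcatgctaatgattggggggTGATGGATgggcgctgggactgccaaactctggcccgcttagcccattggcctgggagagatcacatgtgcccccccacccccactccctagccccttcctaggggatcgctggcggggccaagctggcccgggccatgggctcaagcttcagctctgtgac
Hoxb4: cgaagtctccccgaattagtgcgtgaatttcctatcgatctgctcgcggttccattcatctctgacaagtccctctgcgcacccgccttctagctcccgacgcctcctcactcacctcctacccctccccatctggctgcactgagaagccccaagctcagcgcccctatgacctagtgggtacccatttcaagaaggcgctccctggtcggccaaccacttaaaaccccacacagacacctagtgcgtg
Hoxb8: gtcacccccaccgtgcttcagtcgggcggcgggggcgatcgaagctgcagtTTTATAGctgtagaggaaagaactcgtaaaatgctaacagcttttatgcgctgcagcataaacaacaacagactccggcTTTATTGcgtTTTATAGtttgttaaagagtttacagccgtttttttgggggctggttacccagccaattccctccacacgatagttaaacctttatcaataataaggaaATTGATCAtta
Hoxc4: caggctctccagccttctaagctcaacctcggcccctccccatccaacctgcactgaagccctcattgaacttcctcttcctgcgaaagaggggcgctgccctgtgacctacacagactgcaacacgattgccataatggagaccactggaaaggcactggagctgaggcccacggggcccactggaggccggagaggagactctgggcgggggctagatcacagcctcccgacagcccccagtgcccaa

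Hoxb1 held 1 match to TGATNNAT, TGATGGAT at 162 bases before its start. Hoxb8 held 3 matches to TTTATNG, at 199, 120 and 110 bases before its start, and 1 to TGATNNAT in the opposite direction. Among the 24 Hox windows, TTTATNG occurred in 2 (Hoxb8 and Hoxd4), against 10.9% of all 32851 promoter windows of the same length. TGATNNAT occurred in 4 (Hoxa2, Hoxb1, Hoxb8 and Hoxd11), against 8.85% of all windows. Retinoic acid response elements, searched as direct repeats of the DR5 and DR2 kinds, were found in 0 of the 24 windows, against 0.861% and 1.11% of all windows. A match describes these letters in these windows and nothing beyond them, and TGATNNAT was added after the data were seen.

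The sort and the tissue label were checked against marker genes. Foxa2 stood at 1.33 to 2.51 CPM (each count as a share of its library's TMM-scaled total, on the usual CPM scale) in RA GFP-, 133 to 184 in RA GFP+ and 205 to 326 in SAG GFP+. The summed level of 5 neural progenitor markers (Sox1, Sox2, Sox3, Pax6, Nes) was 957.7 to 1041.6 CPM in RA GFP-, 332.5 to 507.8 in RA GFP+ and 949.5 to 1029.2 in SAG GFP+. The near-equal sums of RA GFP- and SAG GFP+ hid opposite members. Sox1 stood at 60.9 to 76.7 CPM in RA GFP- and 188 to 227 in SAG GFP+, and Pax6 at 100 to 150 and 5.58 to 14.5. In SAG GFP+, 1 of the 5 was called higher and 1 lower than in RA GFP-, and 4 higher and 1 lower than in RA GFP+. The 6 pluripotency markers summed to 606.1 to 1006.8 CPM in RA GFP-, 30 to 41.6 in RA GFP+ and 57.0 to 220.6 in SAG GFP+. The 8 mesoderm markers summed to 26.8 to 29.8, 54.5 to 81.2 and 30.2 to 41.9 CPM in the same order, and the 6 endoderm markers to 5.8 to 7.2, 48.1 to 71.0 and 3.4 to 8.0 CPM. Afp, a defining endoderm gene, had 0 counts in all RA GFP- and SAG GFP+ libraries, and the mesoderm gene Osr1 had 0 in all SAG GFP+ libraries. Of the 8 mesoderm markers, 3 were higher in SAG GFP+ than in RA GFP- by edgeR's quasi-likelihood test, Foxf1 (3.6 on the log2 scale, adjusted p = 4e-05), Foxc2 (2.03, 0.00506) and Twist1 (0.84, 0.0378), and 1, Tcf15, was lower (-3.47, 3.78e-05). Of the 6 endoderm markers, 0 were higher and 2 lower, Sox17 (-1.66, 0.0453) and Hnf4a (-3.12, 0.0294). The part of these markers in the Hox differences below was not tested, and in bulk RNA fewer cells that express a gene and less RNA per cell cannot be told apart.

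SAG GFP+ replicate 1 stood apart from the other SAG libraries. Its caudal epiblast gene T stood at 110 CPM, against 7.94 and 9.81 in replicates 2 and 3. Nkx1-2 stood at 139 CPM in it, against 9.93 and 3.78, and Cdx2 at 47.5 CPM, against 5.06 and 3.97. Total counts ran from 25281871 to 29763765 per library, so 3 counts in a library correspond to about 0.1008 to 0.1222 CPM.

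Of the 38 genes, 36 had at least 1 count, and Hoxd4 and Hoxd12 had 0 in all 9 libraries, which allows a level of up to 0.0124 CPM over the 9 libraries (3 counts, counting error only). The low-count filter kept 27. The other 11 (Hoxa6, Hoxa10, Hoxa11, Hoxa13, Hoxc10, Hoxc11, Hoxc12, Hoxd4, Hoxd10, Hoxd11 and Hoxd12) had at most 16 counts in any library. Of paralog groups 10, 11 and 12, no member passed the filter, while 3 of the 4 listed members of group 13 did (Hoxb13, Hoxc13 and Hoxd13). These 3 stayed between 0 and 2.59 CPM. Genes that passed only through the group in which they were high had to differ, so counts over the 27 are descriptions of the tested genes.

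To compare genes with each other, levels were divided by the length of their merged exons (CPM per kb). In RA GFP- the highest mean levels belonged to Hoxb8 (22.1 ± 13.5 CPM per kb, SD, n = 3), Hoxb4 (17.5 ± 6.57) and Hoxb3 (16.7 ± 8.13). Their spreads overlapped those of Hoxa2 (13 ± 2.47) and Hoxb2 (12.6 ± 0.799), so the order among these 5 is not resolved. In RA GFP+ the highest means were those of Hoxb4 (10.6 ± 8.53), Hoxb8 (9.28 ± 8.37), Hoxb2 (8.90 ± 5.12) and Hoxc4 (8.58 ± 7.44), again within each other's spread. In SAG GFP+ the order was different, with Hoxb2 (31.7 ± 7.26), Hoxb1 (30.6 ± 16.3) and Hoxa2 (19.6 ± 4.33) at the top, followed by Hoxb8 (10.4 ± 4.59) and Hoxb9 (7.97 ± 1.27). Genes of the Hoxb cluster held 62.5 ± 4.17% of the summed Hox level per kb in RA GFP-, 50.1 ± 8.61% in RA GFP+ and 72.6 ± 3.71% in SAG GFP+. Genes of Hoxc held 13.4 ± 1.56%, 20.6 ± 3.94% and 3.96 ± 0.772% in the same order, and genes of Hoxd 3.69 ± 0.974%, 4.80 ± 1.78% and 0.596 ± 0.591%.

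**Figure D1:**
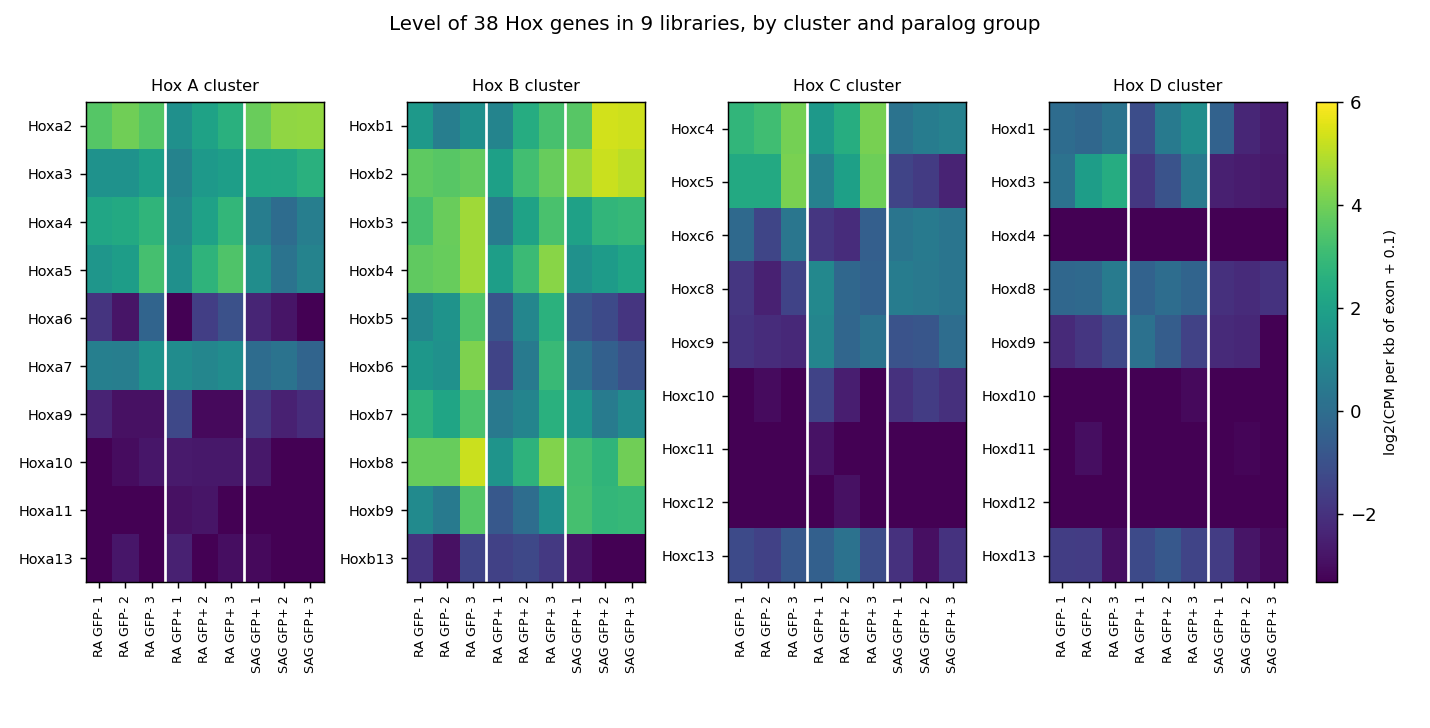
Level of each of the 38 Hox genes in each of the 9 libraries, as log2(CPM per kb of exon + 0.1) by colour, with 1 panel per cluster and genes ordered by paralog group from top to bottom. Hoxb1, Hoxb2 and Hoxa2 are brightest in the SAG GFP+ columns, Hoxc5 and Hoxd3 are dark there, and groups 10 to 12 are dark in every column.

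Split by position, the band of groups 1 to 3 held a larger share in the SAG GFP+ libraries and groups 4 to 8 a smaller one. Within that band only groups 1 and 2 held a larger share of the summed Hox level per kb. Group 1 held 13.1 to 29.4% in SAG GFP+, 1.5 to 3.73% in RA GFP- and 5.33 to 8.94% in RA GFP+. Group 2 held 37.6 to 42.6%, 10.6 to 23.8% and 12.1 to 17.3% in the same order. Group 3 held 8.26 to 9.16% in SAG GFP+, within the 8.26 to 10.1% of RA GFP+ and below the 12.6 to 17.9% of RA GFP-. The 7 listed genes of groups 1 to 3 held 62.9, 80.2 and 73.1% of the summed Hox level per kb in SAG GFP+ replicates 1 to 3. They held 39.3, 43.6 and 27% in RA GFP- and 29.5, 36.4 and 28.3% in RA GFP+, so in this share the SAG libraries did not overlap either RA group. The summed level of these genes did overlap that of RA GFP-. It was 59.6, 113 and 107 CPM per kb in SAG GFP+ and 41.8, 50.5 and 63.0 in RA GFP-. The 15 genes of groups 4 to 8 held 14.1 to 25.8% in SAG GFP+, against 54.4 to 67.5% in RA GFP- and 57.2 to 68.9% in RA GFP+. The 16 genes of groups 9 to 13 held 1.96 to 13.4% in all 9 libraries. Their summed level was 10.7, 7.98 and 8.81 CPM per kb in SAG GFP+ replicates 1 to 3. It was 5.26, 4.27 and 4.61 in RA GFP+, below every SAG library, and 3.19, 2.27 and 12.8 in RA GFP-. Most of the SAG GFP+ sums was Hoxb9 alone, at 9.42, 7.03 and 7.47 CPM per kb. Of the 7 tested genes of this band, 1 (Hoxb9) was called higher in SAG GFP+ than in RA GFP+ and 3 were called lower (Hoxd9, Hoxb13 and Hoxc13). These bands were set after the values were seen, and the shares and sums are a description with no test. The summed level of all 38 genes was 421 ± 195 CPM in RA GFP-, 252 ± 173 in RA GFP+ and 358 ± 77.5 in SAG GFP+, with overlapping libraries (107 to 444 CPM in RA GFP+, a mean of 155.8 without its replicate 3).

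**Figure D2:**
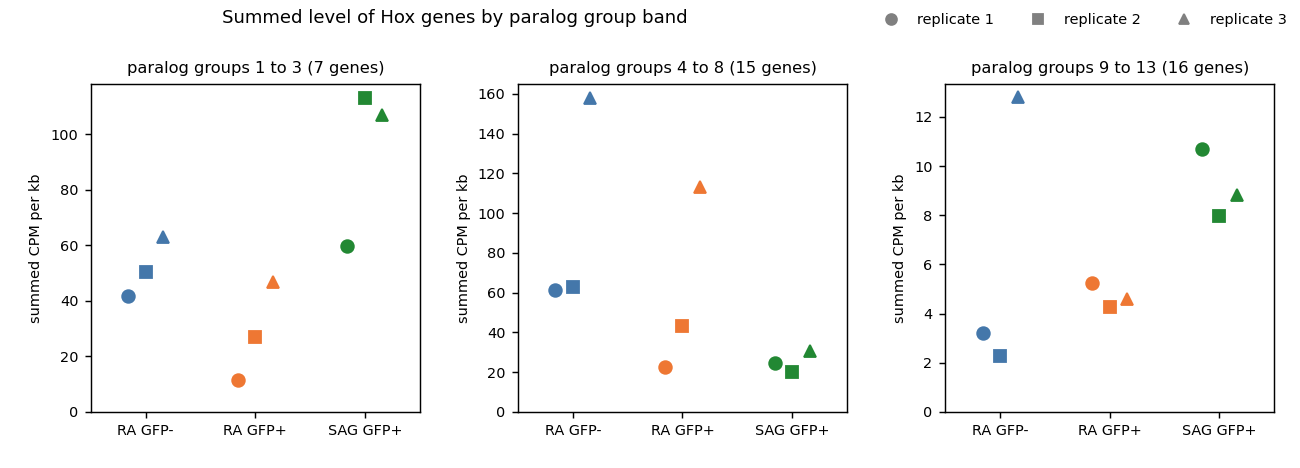
Summed level of the Hox genes of paralog groups 1 to 3, 4 to 8 and 9 to 13, in CPM per kb of exon, with 1 point per library and the symbol giving the replicate number. In groups 1 to 3 the SAG GFP+ libraries lie at 59.6 to 113 and the RA GFP+ libraries at 11.6 to 46.7. The RA GFP- libraries lie at 41.8 to 63.0 there and overlap those of SAG GFP+. In groups 4 to 8 replicate 3 is the highest point of both RA groups (158 and 113).

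The comparison of RA GFP+ with RA GFP- asks which Hox genes go with the FoxA2-Venus reporter inside RA-treated organoids. Hoxc8 and Hoxc9 were higher in GFP+ cells, by 6.35-fold and 8.85-fold. Hoxa2 and Hoxd3 were lower, by 3.12-fold and 5.25-fold. These calls used edgeR's quasi-likelihood test without the replicate number as a block. The threshold was a Benjamini-Hochberg adjusted p under 0.05 over all tested genes. Of the 27 tested Hox genes, 2 were thus higher and 2 lower, where 8.49% of all 16772 tested genes were higher and 8.43% lower. The median log2 fold change of the 27 was -0.31, against -0.02 over all genes. Same-numbered RA libraries deviated together from their group means, and with the replicate number as a block in the 6 RA libraries the same 2 genes were higher and 10 were lower (Hoxa2, Hoxb3, Hoxb4, Hoxb5, Hoxb6, Hoxb7, Hoxb8, Hoxb9, Hoxc6 and Hoxd3), against 16.1% of all genes higher and 16.1% lower. With the block in all 9 libraries, 7 were lower (Hoxa2, Hoxb3, Hoxb4, Hoxb7, Hoxb8, Hoxb9 and Hoxd3), against 11.1% of all genes. In the fit without a block, 10 genes were also lower when RA GFP+ replicate 3 was left out. On omitting replicate 3 of RA GFP-, or either replicate 1 or 2 of RA GFP+, 1 was. No low-count filter gave 8 lower. Libraries of the 2 groups did not overlap for 3 genes higher in GFP+ and 1 lower, against 18.3% and 18.1% of all genes.

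The comparison of SAG GFP+ with RA GFP+ asks how the medium goes with Hox level among reporter-positive cells. Hoxb1, Hoxb2, Hoxa2 and Hoxa3 at the low-numbered end were higher under SAG, as were Hoxb9 and Hoxc6. Hoxa4, Hoxb4, Hoxc4, Hoxa5, Hoxb5, Hoxc5, Hoxa7, Hoxd8 and, outside that stretch, Hoxd3, Hoxd9, Hoxb13 and Hoxc13 were lower. That made 6 higher and 12 lower of 27, where 9.78% of all genes were higher and 14.8% lower, with a median log2 fold change of -1.64 against -0.02 over all genes. All 4 listed genes of group 4 except Hoxd4, which had no counts, and all 3 of group 5 were lower. Leaving out RA GFP+ replicate 2 left 3 of the 6 higher calls, and leaving out SAG GFP+ replicate 2 or replicate 3 left 8 lower calls. Libraries did not overlap for 6 genes higher and 11 lower in SAG GFP+, against 19.8% and 23.1% of all genes.

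The comparison of SAG GFP+ with RA GFP- differs in sort and in medium and shares libraries with both others. Hoxa3, Hoxb1, Hoxb2, Hoxc8 and Hoxc9 were higher, and Hoxa4, Hoxb4, Hoxc4, Hoxa5, Hoxb5, Hoxc5, Hoxb6, Hoxa7, Hoxb7, Hoxd3, Hoxd8 and Hoxb13 were lower. That made 5 higher and 12 lower of 27, where 12% of all genes were higher and 16.5% lower, with a median of -1.45 against -0.01 over all genes. The count of higher genes was 3 without RA GFP- replicate 2 or without SAG GFP+ replicate 2. The count of lower genes was 7 without RA GFP- replicate 3 or without SAG GFP+ replicate 3. Libraries did not overlap for 5 genes higher and 15 lower, against 19% and 22.1% of all genes.

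**Figure D3:**
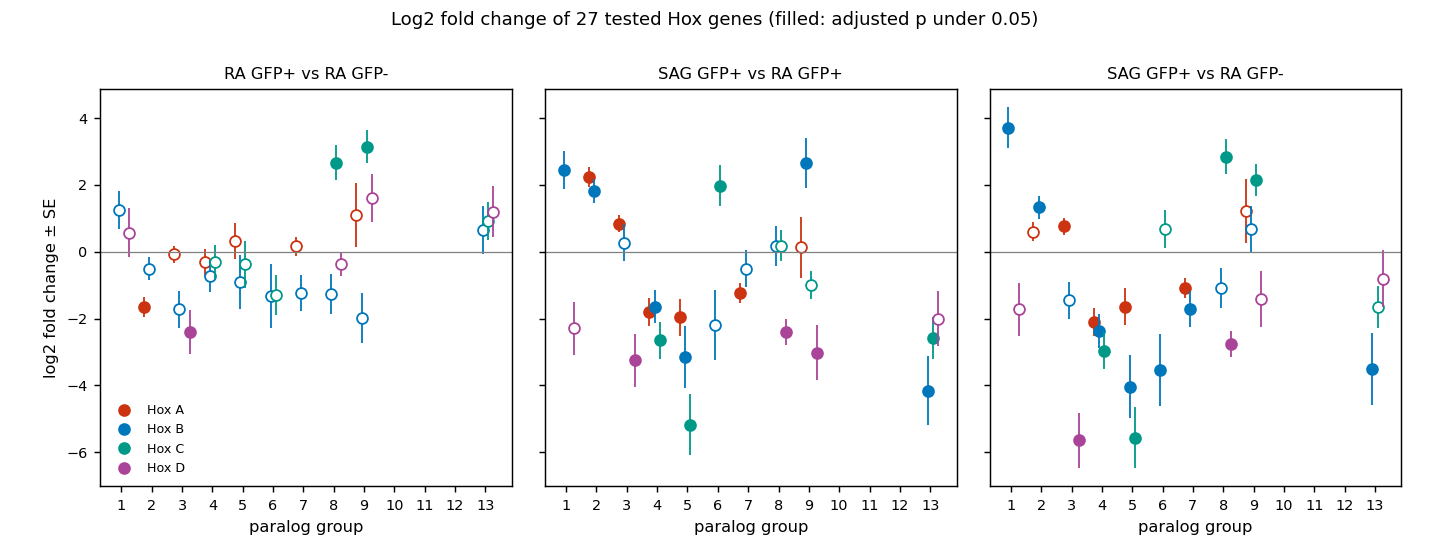
Log2 fold change of the 27 tested Hox genes with its standard error (vertical bars), by paralog group along the horizontal axis and by cluster in colour, for the 3 comparisons. Filled points have an adjusted p under 0.05. In both comparisons with SAG GFP+ the filled points of groups 1 and 2 lie above 0 and those of groups 4 and 5 below it.

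Among the genes of groups 1 to 3, Hoxb1, a gene of the hindbrain segment rhombomere 4, had the largest increase in SAG GFP+. In replicates 1 to 3 it stood at 7.17, 3.43 and 5.67 CPM in RA GFP-, 4.04, 12.3 and 22.6 CPM in RA GFP+, and 27.3, 95.8 and 89.8 CPM in SAG GFP+. Every SAG library was above every RA library, and SAG GFP+ replicate 1, the library rich in T and Nkx1-2, was the lowest of its group. The log2 fold change was 2.45 (SE 0.57, adjusted p = 0.00902) against RA GFP+ and 3.71 (SE 0.61, adjusted p = 0.000953) against RA GFP-. The first of these was 3.11 without RA GFP+ replicate 3. Between the RA groups Hoxb1 was not called (1.26, SE 0.57, adjusted p = 0.168), but passed without RA GFP+ replicate 1 (1.69, adjusted p = 0.0445), as it did with no low-count filter (adjusted p = 0.000143). Hoxd1, the listed group 1 gene of the Hoxd cluster, stayed between 0.117 and 4.22 CPM and was not called in any of the 3 comparisons. It was lower in SAG GFP+ without SAG GFP+ replicate 1 (log2 fold change -3.96, adjusted p = 0.00443 against RA GFP+, and -3.39, adjusted p = 0.00844 against RA GFP-), and against RA GFP+ also without RA GFP+ replicate 1 (-2.73, adjusted p = 0.0271). DESeq2 gave an adjusted p of 0.0159 for Hoxd1 against RA GFP+.

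Hoxb2 and Hoxa2, the group 2 genes, have limits further forward in the hindbrain than Hoxb1. Hoxb2 stood at 44.9, 40.9 and 46.3 CPM in RA GFP-, 13.2, 31 and 48.9 in RA GFP+, and 83.3, 134 and 114 in SAG GFP+. It was higher in SAG GFP+ than in RA GFP+ (log2 fold change 1.83, SE 0.36, adjusted p = 0.00317) and than in RA GFP- (1.33, SE 0.35, adjusted p = 0.0152). The latter call was not kept on omitting RA GFP- replicate 2 (adjusted p = 0.0527) or SAG GFP+ replicate 2 (adjusted p = 0.0538). Hoxa2 stood at 20.5, 28.1 and 20.5 CPM in RA GFP-, 4.35, 7.16 and 10.6 in RA GFP+, and 26.0, 38.6 and 39.9 in SAG GFP+. The RA GFP+ libraries lay below all others, by -1.64 on the log2 scale against RA GFP- (SE 0.30, adjusted p = 0.00291), and SAG GFP+ exceeded RA GFP+ by 2.24 (SE 0.30, adjusted p = 0.000284). Against RA GFP- the SAG GFP+ libraries overlapped and Hoxa2 was not called (0.60, SE 0.28, adjusted p = 0.138; 0.0339 with no low-count filter).

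The group 3 genes diverged from each other. Hoxa3 stood at 15.8, 15.7 and 22.4 CPM in RA GFP-, 10.2, 18.8 and 21.9 in RA GFP+, and 27.9, 28.0 and 35.5 in SAG GFP+. Its higher level in SAG GFP+ was small (log2 fold change 0.84, SE 0.26, adjusted p = 0.035 against RA GFP+ and 0.76, SE 0.26, adjusted p = 0.0478 against RA GFP-). The call against RA GFP+ was not kept on omitting RA GFP+ replicate 1 (adjusted p = 0.0986) or replicate 2 (0.0703), or SAG GFP+ replicate 2 (0.0601) or replicate 3 (0.115). The call against RA GFP- was not kept on omitting RA GFP- replicate 1 (0.133) or replicate 2 (0.139), RA GFP+ replicate 2 (0.0638), or SAG GFP+ replicate 2 (0.0745) or replicate 3 (0.144). Hoxa3 shares 25.4% of its exon bases with genes on the opposite strand.

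Hoxd3 went the other way from Hoxa3. It stood at 4.31, 14.7 and 22.5 CPM in RA GFP-, 0.784, 1.75 and 5.34 in RA GFP+, and 0.326, 0.262 and 0.234 in SAG GFP+. The SAG GFP+ libraries were below every RA library, by -3.25 against RA GFP+ (SE 0.80, adjusted p = 0.0123; -2.20 on omitting RA GFP+ replicate 3, and adjusted p = 0.151 with limma-voom) and by -5.64 against RA GFP- (SE 0.82, adjusted p = 0.000445). Under RA it was lower in GFP+ (-2.39, SE 0.66, adjusted p = 0.0273), although the highest GFP+ library exceeded the lowest GFP- library. That call was not kept on omitting RA GFP- replicate 2 (adjusted p = 0.0654) or replicate 3 (0.0995), or RA GFP+ replicate 1 (0.0744) or replicate 2 (0.109), and the difference was -3.43 without RA GFP+ replicate 3. Of the exon bases of Hoxd3, 62.3% are shared with other genes on the same strand, 53.1% with Gm28230 and 9.26% with Hoxd4, so its count and the 0 counts of Hoxd4 depend on how shared reads were counted, which is not given in the sources used here.

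Hoxb3 is the group 3 gene with the highest mean level per kb in both RA groups (16.7 ± 8.13 and 5.06 ± 4.31 CPM per kb). It stood at 41.6, 62.1 and 109 CPM in RA GFP-, 5.80, 17.1 and 41.7 in RA GFP+, and 16.9, 29.4 and 31.5 in SAG GFP+. In each same-numbered RA pair the GFP+ library was below the GFP- library, by -2.84, -1.86 and -1.39 on the log2 scale. It was not called between the RA groups (-1.72, SE 0.56, adjusted p = 0.0576), where the GFP+ replicate 3 library just exceeded the lowest GFP- library. It was called with the block in the 6 RA libraries (-1.97, SE 0.22, adjusted p = 8.48e-05), with limma-voom (adjusted p = 0.025), with no low-count filter (6.42e-08), without RA GFP+ replicate 3 (-2.62, adjusted p = 0.00618) and without SAG GFP+ replicate 1 (0.0497). Against RA GFP- it was not called in SAG GFP+ (-1.45, SE 0.56, adjusted p = 0.0719), but was on omitting RA GFP+ replicate 1 (0.0196) or replicate 3 (0.0246), with only the 6 libraries of these groups (0.0111) and with no low-count filter (2.87e-06). Of its exon bases, 52.9% are shared with Hoxb3os, a gene on the opposite strand, as are 27.3% of those of Hoxb2. Hoxb3os itself stood at 39.3, 112 and 104 CPM in SAG GFP+ and 7.06 to 19.6 CPM in the RA libraries (2.79, SE 0.42, adjusted p = 0.000577 against RA GFP+), and the strand setting of the counting is not given in the sources used here.

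**Figure D4:**
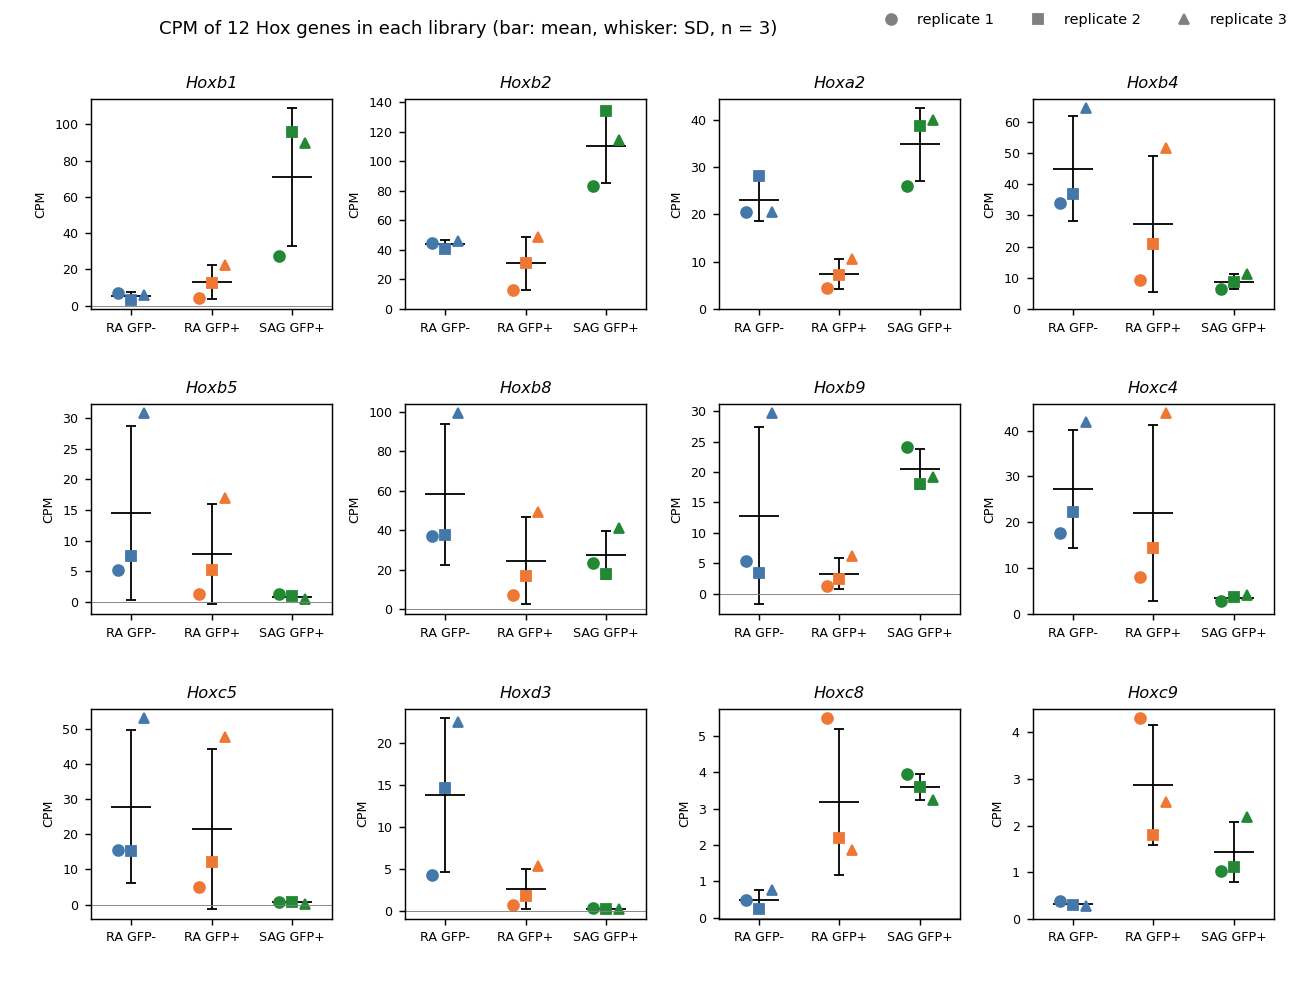
CPM of 12 Hox genes in each of the 9 libraries, with 1 point per library, the symbol giving the replicate number, the horizontal bar the mean and the whisker the SD (n = 3). Hoxb1 and Hoxb2 are highest in the SAG GFP+ libraries, Hoxc4, Hoxc5 and Hoxd3 lowest there, and replicate 3 is the highest point of both RA groups for Hoxb4, Hoxb5, Hoxb8, Hoxb9, Hoxc4 and Hoxc5.

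Groups 4 to 8 hold the central genes, active from the posterior hindbrain into the spinal cord. Hoxc5 showed the strongest reduction in SAG GFP+ among them. It stood at 15.4, 15.2 and 53 CPM in RA GFP-, 4.90, 12 and 47.5 in RA GFP+, and 0.855, 0.637 and 0.273 in SAG GFP+. The log2 fold change was -5.18 (SE 0.91, adjusted p = 0.0017) against RA GFP+ and -5.56 (SE 0.92, adjusted p = 0.000998) against RA GFP-. On omitting replicate 3 of the RA group compared, these became -3.84 and -4.70, and both calls held in all alternatives. Its neighbour Hoxc4 stood at 17.7, 22.3 and 41.8 CPM in RA GFP-, 8, 14.3 and 43.8 in RA GFP+, and 2.77, 3.6 and 4.13 in SAG GFP+. All SAG libraries were below all RA libraries for Hoxc4 too (-2.65, SE 0.56, adjusted p = 0.00497 against RA GFP+, -1.68 without its replicate 3, and -2.96, SE 0.56, adjusted p = 0.00232 against RA GFP-). Between the RA groups neither was called, and Hoxc4 was called lower without RA GFP+ replicate 3 (-1.28, adjusted p = 0.0471).

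The other tested group 4 genes followed the same direction under SAG. Hoxa4 stood at 7.06, 7.96 and 10.8 CPM in RA GFP-, 3.21, 6.28 and 11.3 in RA GFP+, and 2.28, 1.39 and 2.37 in SAG GFP+ (-1.79, SE 0.42, adjusted p = 0.00994 against RA GFP+ and -2.10, SE 0.43, adjusted p = 0.00361 against RA GFP-). Hoxb4 stood at 33.9, 36.7 and 64.4 CPM in RA GFP-, 9.33, 20.7 and 51.7 in RA GFP+, and 6.52, 8.73 and 11.1 in SAG GFP+. The RA GFP- libraries were apart from SAG GFP+ (-2.36, SE 0.51, adjusted p = 0.00508), whereas RA GFP+ and SAG GFP+ overlapped (-1.64, SE 0.50, adjusted p = 0.033). The call against RA GFP+ was not kept on omitting RA GFP+ replicate 3 (-0.78, adjusted p = 0.159) or SAG GFP+ replicate 1 (0.0804), replicate 2 (0.0965) or replicate 3 (0.0588), nor with limma-voom (0.116) or with only the 6 libraries of the pair of groups (0.055).

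Group 5 gave lower values in SAG GFP+ for all 3 clusters that carry it. Hoxb5 stood at 5.26, 7.43 and 30.8 CPM in RA GFP-, 1.22, 5.14 and 16.9 in RA GFP+, and 1.26, 0.899 and 0.467 in SAG GFP+. It was lower than in RA GFP- (-4.04, SE 0.94, adjusted p = 0.0079; -2.85 on omitting RA GFP- replicate 3) and than in RA GFP+ (-3.15, SE 0.92, adjusted p = 0.0278). RA GFP+ replicate 1 overlapped the SAG libraries, and the call against RA GFP+ was not kept on omitting RA GFP+ replicate 3 (-1.87, adjusted p = 0.124), SAG GFP+ replicate 2 (0.0845) or replicate 3 (0.101), nor with limma-voom (0.172). Hoxa5 stood at 5.40, 6.63 and 17.6 CPM in RA GFP-, 4.59, 12.2 and 20.1 in RA GFP+, and 4.32, 2.02 and 3.15 in SAG GFP+. The fold against RA GFP+ was -1.96 (SE 0.56, adjusted p = 0.0249) and that against RA GFP- was -1.64 (SE 0.56, adjusted p = 0.0468). The first was not kept on omitting RA GFP+ replicate 2 (0.0582) or replicate 3 (0.0924), or SAG GFP+ replicate 2 (0.097) or replicate 3 (0.0742), and the other without RA GFP- replicate 2 (0.051) or replicate 3 (-0.93, adjusted p = 0.203), RA GFP+ replicate 2 (0.0635), or SAG GFP+ replicate 2 (0.154) or replicate 3 (0.118). With limma-voom neither call held (0.0604 and 0.111).

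Groups 6 and 7 varied widely between libraries of the same group. Hoxb6 stood at 5.86, 4.95 and 35.6 CPM in RA GFP-, 0.549, 2.59 and 15.3 in RA GFP+, and 2.00, 1.24 and 0.779 in SAG GFP+. It was lower in SAG GFP+ than in RA GFP- (-3.53, SE 1.08, adjusted p = 0.0301), a call which did not hold on omitting RA GFP- replicate 3 (-2.01, adjusted p = 0.14), SAG GFP+ replicate 2 (0.0924) or replicate 3 (0.103), nor with limma-voom (0.085). Hoxb7 stood at 9.99, 6.67 and 15.6 CPM in RA GFP-, 1.96, 2.72 and 9.07 in RA GFP+, and 4.32, 2.10 and 3.35 in SAG GFP+. Its difference from RA GFP- (-1.72, SE 0.54, adjusted p = 0.0334) was not kept on omitting RA GFP- replicate 1 (0.0712) or replicate 3 (0.102), or SAG GFP+ replicate 2 (0.121) or replicate 3 (0.088). Neither gene was called against RA GFP+ (adjusted p = 0.151 for Hoxb6, which passed with no low-count filter at 8.95e-05, and 0.538 for Hoxb7). Between the RA groups, the block in the 6 RA libraries gave lower calls for Hoxb6 (-1.60, adjusted p = 0.00512) and Hoxb7 (-1.42, 0.00309). The 9-library fit without the block called neither (adjusted p = 0.401 for Hoxb6 and 0.145 for Hoxb7). Hoxa7 was steadier, at 4.34, 4.31 and 7.38 CPM in RA GFP-, 6.31, 5.24 and 6.31 in RA GFP+, and 2.53, 3.03 and 2.02 in SAG GFP+. It was lower in SAG GFP+ than in RA GFP+ (-1.23, SE 0.30, adjusted p = 0.0106) and than in RA GFP- (-1.08, SE 0.30, adjusted p = 0.0188), the latter not kept on omitting RA GFP- replicate 3 (0.0704) or SAG GFP+ replicate 3 (0.0724). Hoxc6, the 1 tested gene of groups 4 to 8 called in this direction, was higher in SAG GFP+ than in RA GFP+ (1.98, SE 0.61, adjusted p = 0.0341), from 0.431, 0.302 and 1.46 CPM to 2.73, 3.26 and 2.73. That call was not kept on omitting RA GFP+ replicate 1 (0.12) or replicate 2 (0.122), or SAG GFP+ replicate 2 (0.0876) or replicate 3 (0.0659), and the difference was 2.98 without RA GFP+ replicate 3.

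Group 8 split by cluster. Hoxb8, which marks spinal levels, stood at 37.3, 37.8 and 99.3 CPM in RA GFP-, 7.17, 16.9 and 49.3 in RA GFP+, and 23.6, 17.9 and 41.1 in SAG GFP+. It was called neither against RA GFP+ (0.17, SE 0.59, adjusted p = 0.868) nor against RA GFP- (-1.08, SE 0.60, adjusted p = 0.201), although with no low-count filter its adjusted p against RA GFP- was 0.00121. Between the RA groups it was not called (-1.25, SE 0.60, adjusted p = 0.193), but passed with the block in the 6 RA libraries (-1.47, adjusted p = 0.000591) and on omitting RA GFP+ replicate 3 (-2.27, adjusted p = 0.0169). Hoxd8 stood at 2.12, 2.21 and 3.73 CPM in RA GFP-, 1.80, 2.49 and 1.95 in RA GFP+, and 0.407, 0.337 and 0.428 in SAG GFP+, with calls that held in all alternatives (-2.40, SE 0.39, adjusted p = 0.00098 and -2.77, SE 0.39, adjusted p = 0.000342). Hoxc8 was low in RA GFP- alone, at 0.494, 0.229 and 0.761 CPM, against 5.49, 2.18 and 1.85 in RA GFP+ and 3.95, 3.6 and 3.23 in SAG GFP+. The RA groups did not overlap (2.67, SE 0.52, adjusted p = 0.00455, and 2.02 on omitting RA GFP+ replicate 1), and SAG GFP+ exceeded RA GFP- by 2.85 (SE 0.52, adjusted p = 0.00184).

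Groups 9 to 13 are the most posterior genes, active towards the lower spinal cord and tail. Hoxc9, the neighbour of Hoxc8 on the chromosome, was likewise lowest in RA GFP-. It stood at 0.388, 0.305 and 0.266 CPM in RA GFP-, 4.31, 1.81 and 2.51 in RA GFP+, and 1.02, 1.12 and 2.18 in SAG GFP+. RA GFP+ exceeded RA GFP- by 3.15 (SE 0.49, adjusted p = 0.00123) and SAG GFP+ exceeded it by 2.15 (SE 0.49, adjusted p = 0.00703), and both calls held in all alternatives. Hoxb9 stood at 5.44, 3.39 and 29.7 CPM in RA GFP-, 1.25, 2.32 and 6.10 in RA GFP+, and 24.2, 18.1 and 19.2 in SAG GFP+. The SAG GFP+ libraries were all above those of RA GFP+ (2.66, SE 0.75, adjusted p = 0.0228; 3.51 on omitting RA GFP+ replicate 3), a call which did not hold on omitting RA GFP+ replicate 1 (0.0787) or replicate 2 (0.0885). Against RA GFP- Hoxb9 was called higher without RA GFP- replicate 3 (2.21, adjusted p = 0.0129) and was not called with it (0.68, SE 0.69, adjusted p = 0.501). Between the RA groups it was not called (-1.98, SE 0.74, adjusted p = 0.0924), but passed on omitting either replicate 2 of RA GFP- (-2.44, adjusted p = 0.0396) or replicate 3 of RA GFP+ (-2.83, adjusted p = 0.0399). It also passed with the block in the 6 RA libraries (-1.69, adjusted p = 0.00218) and in all 9 libraries (-1.73, adjusted p = 0.0397). Within the Hoxb cluster, SAG GFP+ thus had higher values than RA GFP+ for Hoxb1, Hoxb2 and Hoxb9, lower values for Hoxb4, Hoxb5 and Hoxb13, and no call for Hoxb3, Hoxb6, Hoxb7 and Hoxb8.

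The remaining posterior genes were scarce. Hoxd9 stood at 0.247, 0.381 and 0.647 CPM in RA GFP-, 2.16, 1.21 and 0.558 in RA GFP+, and 0.244, 0.225 and 0 in SAG GFP+. It was lower in SAG GFP+ than in RA GFP+ (-3.02, SE 0.82, adjusted p = 0.0188), a call which did not hold on omitting RA GFP+ replicate 1 (0.0868). Hoxc13 stood at 0.812, 0.610 and 1.22 CPM in RA GFP-, 1.53, 2.59 and 0.872 in RA GFP+, and 0.367, 0.0749 and 0.389 in SAG GFP+ (-2.58, SE 0.62, adjusted p = 0.0105 against RA GFP+), a call which did not hold on omitting RA GFP+ replicate 2 (0.058). Hoxb13 had 46 counts over the RA GFP+ libraries, 28 over RA GFP- and 2 over SAG GFP+. Scaled by library size, the ratio to SAG GFP+ was 21.1 for RA GFP+ (exact 95% interval 5.51 to 179) and 13.3 for RA GFP- (3.36 to 115), for counting error only. Both differences were called lower in SAG GFP+ (adjusted p = 0.0124 and 0.0302). The first was not kept on omitting SAG GFP+ replicate 2 (0.0575) or replicate 3 (0.0515), and the other without RA GFP- replicate 1 (0.0666) or replicate 3 (0.0965), or SAG GFP+ replicate 2 (0.107) or replicate 3 (0.101). The SAG GFP+ counts of Hoxb13 all came from replicate 1, without which it was at 0 in that group. Hoxa9 and Hoxd13 were called in none of the 3 comparisons, at 0.101 to 1.72 and 0.0389 to 1.21 CPM. Hoxa9 was higher in SAG GFP+ than in RA GFP+ without RA GFP+ replicate 1 (2.70, adjusted p = 0.0394), and Hoxd13 was lower without SAG GFP+ replicate 1 (-3.48, adjusted p = 0.0183).

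The labels give every group the replicate numbers 1 to 3, and many Hox genes differed by that number within the RA groups. Of the 27 tested genes, 17 had replicate 3 as the highest library in both RA groups, against 19.7% of all tested genes, and 2 had replicate 1 (Hoxa9 and Hoxc9). In all 9 libraries, with group means removed, 0 of 27 Hox genes passed an F test of the replicate number with edgeR (0.238% of all genes did), while 13 had an unadjusted p under 0.05, as did 19.4% of all genes. DESeq2 and limma-voom each called 6. The number of calls depended on the SAG libraries, being 10 without SAG GFP+ replicate 1, 3 without its replicate 2 and 5 without its replicate 3. In the 6 RA libraries alone, a test added after the data were seen, 11 of 26 tested Hox genes were called (Hoxa5, Hoxb3, Hoxb4, Hoxb5, Hoxb6, Hoxb7, Hoxb8, Hoxb9, Hoxc4, Hoxc5 and Hoxd3), against 5.38% of all genes.

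These 11 genes lie in groups 3 to 9, and 7 of them are the unbroken run Hoxb3 to Hoxb9. For Hoxb6 the difference of replicate 3 from replicate 1 was 3.25 on the log2 scale (adjusted p = 0.00349), and that of replicate 2 from replicate 1 was 0.53. For Hoxb5 these were 3.00 and 1.12 (adjusted p = 0.00235), for Hoxc5 2.43 and 0.51 (0.00323), and for Hoxb8 1.99 and 0.50 (0.00602). Hoxb7 had the smallest difference of replicate 3 from replicate 1 among the 11, 1.32 (adjusted p = 0.0387). At the ends of the run, Hoxb1, Hoxb2 and Hoxb13 were not called (adjusted p = 0.399, 0.226 and 0.834). Within SAG GFP+, replicate 3 was not the highest library for Hoxb5, Hoxb6, Hoxb7, Hoxb9, Hoxa5, Hoxc5 or Hoxd3, and it was the highest for the other 4, Hoxb3, Hoxb4, Hoxb8 and Hoxc4. Over all 27 Hox genes tested, replicate 3 was the highest library in all 3 groups for 6, against 9.65% of all genes.

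Other genes also differed between the same libraries. Cdx2 stood at 7.91, 6.32 and 3.01 CPM in RA GFP- and 15.9, 8.54 and 5.55 in RA GFP+. The retinoid enzyme gene Dhrs3 stood at 1.94, 2.59 and 8.79 CPM in RA GFP- and 3.21, 9.11 and 8.09 in RA GFP+. The retinoic acid receptor gene Rarb stood at 19.5, 33.5 and 36.5 and at 18.1, 44.6 and 44.0 CPM. Thus replicate 3 was lowest for Cdx2 in both RA groups, whereas replicate 1 was lowest for Dhrs3 and Rarb. The 6 pluripotency markers summed to 1006.8, 606.1 and 791.6 CPM in RA GFP- and to 38.2, 30 and 41.6 in RA GFP+. These genes were chosen after their values were seen, and their part in the Hox differences was not tested.

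Within same-numbered RA pairs, 11 of the 27 tested Hox genes were lower in GFP+ in all 3 pairs (31% of all tested genes were) and 3 were higher (30.1% were). The 11 were Hoxa2, Hoxb3 to Hoxb9, Hoxc5, Hoxc6 and Hoxd3, and the 3 were Hoxc8, Hoxc9 and Hoxd13. Replicate 1 had the strongest reduction for Hoxb6, -3.42, against -0.94 and -1.22 in replicates 2 and 3. For Hoxb8 the differences were -2.38, -1.16 and -1.01, and for Hoxb4 -1.86, -0.82 and -0.32. For Hoxb1 they were -0.83, 1.85 and 1.99, so the pairs went opposite ways.

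**Figure D5:**
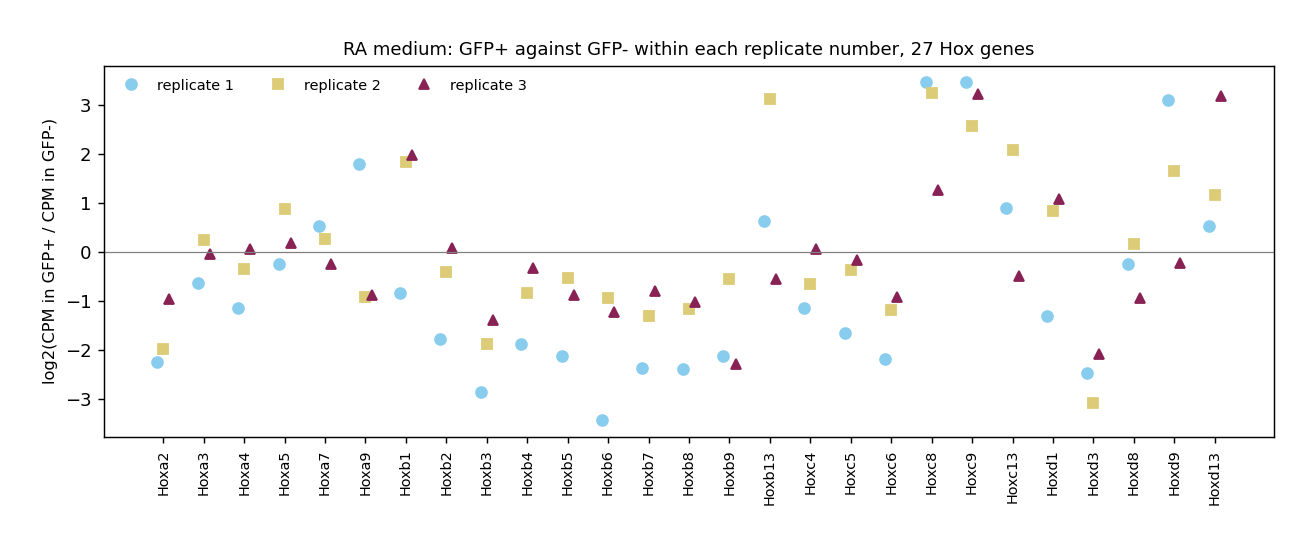
Log2 ratio of CPM in GFP+ to CPM in GFP- under RA within each replicate number, for the 27 tested Hox genes ordered by cluster and paralog group, with the symbol and colour giving the number. From Hoxb3 to Hoxb9 all points lie below 0, and for Hoxc8 and Hoxc9 all lie above it (1.28 to 3.47).

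Lists of genes that act on or with Hox genes were counted in the same way, beside the shares of all genes that were higher and lower (8.49% and 8.43% in RA GFP+ against RA GFP-, 9.78% and 14.8% in SAG GFP+ against RA GFP+, and 12% and 16.5% in SAG GFP+ against RA GFP-). Where a list's share is near these, as for the TALE and caudal genes below in RA GFP+ against RA GFP- and the chromatin genes in SAG GFP+ against RA GFP+, nothing is read from it about the list. Of the 14 retinoic acid genes tested, 1 was higher and 2 were lower in RA GFP+ than in RA GFP-, 3 were higher and 5 lower in SAG GFP+ than in RA GFP+, and 3 were higher and 5 lower in SAG GFP+ than in RA GFP-. Rarb, itself a direct target of retinoic acid, stood at 0.0815, 0.337 and 0.506 CPM in SAG GFP+, below the RA libraries (18.1 to 44.6 CPM), by -6.82 on the log2 scale (SE 0.53, adjusted p = 8.8e-06 against RA GFP+). Cyp26a1, which encodes a retinoic acid degrading enzyme, was lower by -4.22 (SE 0.37, adjusted p = 1.9e-05), at 0.562 to 1.91 CPM against 20.9 to 29.3. Cyp26b1, another gene of that family, was at 53.3 to 81.4 CPM in SAG GFP+ and 2.19 to 6.72 in RA GFP+ (3.85, SE 0.35, adjusted p = 2.26e-05). Under RA, Stra6, a retinol transporter gene, was higher in GFP+ (2.73, SE 0.27, adjusted p = 7.02e-05) and Crabp2, a retinoic acid binding protein gene, was lower (-1.25, SE 0.36, adjusted p = 0.0342).

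Of the 9 TALE cofactor genes, 1 was higher and 1 lower in RA GFP+ than in RA GFP-, and 3 were higher and 1 lower in SAG GFP+ against either RA group. Pknox2 stood at 21.5 to 30.4 CPM in RA GFP-, 49.5 to 59.7 in RA GFP+ and 76.3 to 134 in SAG GFP+ (1.08, SE 0.21, adjusted p = 0.00449 between the RA groups and 1.03, SE 0.21, adjusted p = 0.00405 for SAG GFP+ against RA GFP+). Meis3 was lower in RA GFP+ than in RA GFP- (-0.99, SE 0.15, adjusted p = 0.00106) and higher in SAG GFP+ than in RA GFP+ (0.85, SE 0.15, adjusted p = 0.00179). Of the 7 tested caudal genes, 1 was higher and 0 lower in RA GFP+ than in RA GFP- (Fgf8, 2.08, SE 0.63, adjusted p = 0.0425), 2 were higher and 1 lower in SAG GFP+ than in RA GFP+, and 3 were higher and 0 lower than in RA GFP-. T (3.43, SE 0.97, adjusted p = 0.0239) and Nkx1-2 (7.04, SE 1.36, adjusted p = 0.00313) were the 2 higher in SAG GFP+ than in RA GFP+, with the highest values in SAG GFP+ replicate 1 as given above. Cdx4, a Hox activator of the tail end, did not pass the filter. It had 2, 1 and 3 counts in RA GFP-, 1, 0 and 0 in RA GFP+ and 0 in all SAG GFP+ libraries, too few to compare the groups.

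Of the 19 Polycomb and Trithorax genes, which hold Hox chromatin off or on, 0 were higher and 4 lower in RA GFP+ than in RA GFP-, 2 were higher and 2 lower in SAG GFP+ than in RA GFP+, and 2 were higher and 5 lower than in RA GFP-. Suz12 was lower in RA GFP+ than in RA GFP- (-0.68, SE 0.09, adjusted p = 0.000618) and Mtf2 as well (-0.59, SE 0.10, adjusted p = 0.00251). Cbx7 was at 56.9 to 66.0 CPM in SAG GFP+ and 159 to 247 in RA GFP+ (-1.81, SE 0.16, adjusted p = 2.17e-05), and Ezh1 was higher in SAG GFP+ (0.73, SE 0.17, adjusted p = 0.00898).

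Hindbrain segment genes were called in both directions. Of 7 tested, 4 were higher and 1 lower in RA GFP+ than in RA GFP-, 3 were higher and 2 lower in SAG GFP+ than in RA GFP+, and 4 were higher and 1 lower than in RA GFP-. Egr2, which marks rhombomeres 3 and 5 and activates group 2 Hox genes there, stood at 83.5, 21.8 and 25.5 CPM in SAG GFP+ and 1.01 to 1.61 in RA GFP+ (5.12, SE 0.64, adjusted p = 0.000187). Of 11 genes of the forebrain and midbrain that passed the filter, 3 were higher and 2 lower in RA GFP+ than in RA GFP-, 1 was higher and 6 lower in SAG GFP+ than in RA GFP+, and 2 were higher and 5 lower than in RA GFP-. Dmbx1 (-3.15, SE 0.41, adjusted p = 0.000239) and En1 (3.27, SE 0.44, adjusted p = 0.000296) had the smallest p among these genes in SAG GFP+ against RA GFP+.

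Of the 16 named non-coding genes of the clusters found in the table, 8 passed the filter, with 0 higher and 1 lower in RA GFP+ than in RA GFP- (Hoxd3os1, -2.49, SE 0.78, adjusted p = 0.0487) and 1 higher and 2 lower in SAG GFP+ against either RA group. Halr1, beside Hoxa, stood at 2.57, 4.23 and 6.58 CPM in SAG GFP+ and 22.9, 27 and 25.4 in RA GFP+ (-2.49, SE 0.35, adjusted p = 0.000382). The microRNA genes of the clusters, Hottip and Hotair had at most 1 count in any library, and poly(A) selection does not capture mature microRNAs. Of the 5 genes flanking the clusters and ParaHox genes, Gsx1 and Gsx2 passed the filter, and both were lower in RA GFP+ than in RA GFP- (-3.32, SE 0.84, adjusted p = 0.0176 and -4.86, SE 0.89, adjusted p = 0.00509). Evx1, next to the posterior end of Hoxa, stood at 5.82 CPM in SAG GFP+ replicate 1 and at 0 in the other SAG libraries.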

How the data were processed

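Per the file headers and the values, the authors deposited raw counts, whole-number counts of reads per Ensembl gene with 1 column per library. Trimming by Trim Galore 0.5.0, alignment by Bowtie2 2.3.4.1 and counting by featureCounts (Subread 1.6.2) on GRCm38 are named per the submitters' processing notes. The sources used here do not give the strand setting, the annotation release, the handling of reads shared by overlapping genes or whether the alignment was to the genome or to transcripts. Symbols were found for 54409 of 54532 genes. Coordinates are 1-based.

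All 9 libraries entered 1 edgeR model (version 4.0.16, R 4.3.3) with group means and TMM factors. The 16772 genes that passed filterByExpr (minimum count 10) were compared by the quasi-likelihood test, with Benjamini-Hochberg adjustment over them in each comparison. Every adjusted p is from this fit unless another is named. A gene was called higher or lower at an adjusted p under 0.05. The SE is the log2 fold change divided by the square root of F. Alternatives were RLE scaling, DESeq2 1.42.0, limma-voom (limma 3.58.1), no low-count filter, leaving out each library, the replicate block, and fits of 6 libraries. The fit was also run on simulated counts with known changes, not all of which it recovered, so a gene not called may still differ. For the group comparisons the simulated libraries held no effect of the replicate number, so that run does not cover the pairing of the RA libraries. Deviations of same-numbered RA libraries correlated across genes (r = 0.273, 0.307 and 0.347), so numbers pair the RA libraries. For SAG GFP+ they gave 0.111, -0.082 and 0.182 against RA GFP+, and 0.175, -0.022 and 0.242 against RA GFP-. Whether the SAG numbers pair with those of RA is not settled by these values.

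All 38 members may be named; of each other list the 2 called genes with the smallest adjusted p in a comparison are the rule, and further genes were chosen after their values were seen. A gene that this rule would name is not reported here. The rule for the members used no measured value, but the rule and the lists were set with earlier results of these data known.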

Additional observations from a re-analysis of the deposited data

How the results depend on the processing

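No called Hox gene changed direction under the alternatives run. Genes not called did, among them Hoxa9 (-1.47 to 1.72 on the log2 scale), Hoxb5 (-2.18 to 0.29) and Hoxb6 (-3.28 to 0.18) in RA GFP+ against RA GFP-, and Hoxb3 (-0.18 to 1.17) and Hoxb7 (-0.86 to 0.47) in SAG GFP+ against RA GFP+. Hox genes higher in RA GFP+ than in RA GFP- numbered 2 (2 to 3 on leaving out a library). Those lower numbered 2, against 8 with no low-count filter and 1 to 10 on leaving out a library. In SAG GFP+ against RA GFP+, 6 were higher (3 to 6) and 12 lower (8 to 13), and against RA GFP- 5 were higher (3 to 6) and 12 lower (7 to 13). Of the called genes, 3 of 4, 8 of 18 and 10 of 17 kept their call under all alternatives in the 3 comparisons. Differences by replicate number were called for 0 Hox genes, against 6 with DESeq2, 6 with limma-voom, 16 with no low-count filter (36 tested), 0 to 10 on leaving out a library, and 11 in the 6 RA libraries, an alternative chosen after seeing the data. Where a library is left out of a group, its 2 remaining libraries carry the estimate of their mean.

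With the replicate block, lower Hox genes under RA numbered 7 in all 9 libraries and 10 in the 6 RA libraries. In the comparisons with SAG GFP+, where pairing by replicate number is not settled, the block moved no count by over 1.5 times. In all 9 libraries it added Hoxd13 against RA GFP+ (adjusted p = 0.0356), and Hoxb3 (0.00369) and Hoxb8 (0.0223) against RA GFP-. Relative to the main fit, the block in 6 libraries removed Hoxb5 against RA GFP+ (0.0709) and Hoxa7 against RA GFP- (0.064). It added Hoxa2 (0.0344), Hoxb3 (0.000723) and Hoxb8 (0.00248) against RA GFP-. Hoxb3 was also called in those 6 libraries without the block (0.0111), and Hoxb13 was not tested in them. Low counts limit what the 11 genes below the filter can show.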
